A study of Homo sapiens with 8 samples.

Results

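The genes of the aryl hydrocarbon receptor pathway were followed across DU145 prostate cancer cells that received FGF19, TNFα, both or neither. The genes were AHR and ARNT, which encode the receptor and its partner, the repressor gene AHRR, and the target genes CYP1A1, CYP1B1, TIPARP and NQO1. They were found by the gene symbols that the platform annotation gives to the probesets of the array. Of these 7 genes, 6 had a probeset of their own among the 33297 probesets of the series. The probeset that carries the symbol AHRR also carries PDCD6, so that AHRR had no measurement of its own. CYP1B1 and TIPARP were chosen because their signal with both agents was lower than the sum of the separate differences. Their differences between groups are therefore given as values and were not tested, except for averages over the other agent, whose estimates are independent of that choice.

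The aryl hydrocarbon receptor is a ligand-activated transcription factor of the bHLH-PAS family. It is held in the cytoplasm by HSP90 and other chaperones, moves to the nucleus when a ligand such as dioxin or a tryptophan metabolite binds, and pairs there with ARNT on response elements with the core GCGTG. Its best known targets encode the cytochromes P450 CYP1A1 and CYP1B1, which oxidise polycyclic hydrocarbons and estrogens, and the proteins TIPARP and AHRR, which restrain the receptor. NQO1, a quinone reductase, answers to the receptor and also to the antioxidant factor NRF2.

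DU145 is an established human prostate cancer cell line, and all cultures were kept without serum before treatment. The 4 groups were Mock (untreated), FGF19, TNFα and FGF19 + TNFα, each with 2 arrays that the labels call biological replicates. Per the labels, FGF19 was given at 50 ng/ml with 100 µg/ml heparin for 100 min and TNFα at 50 ng/ml for 90 min. In the combined group, FGF19 and heparin preceded TNFα by 10 min. The methods of the study name lower doses of heparin and TNFα. Heparin was given only with FGF19, so that the 2 cannot be told apart. The measurement was the linear PLIER signal of Affymetrix Human Gene 1.0 ST arrays, taken to log2, and array medians of signal ran from 99.5 to 107. Across probesets, arrays of 1 group correlated at r = 0.967 to 0.980. The epithelial markers EPCAM, KRT8, KRT18 and CDH1 had signals of 551 to 3618. The androgen targets KLK3 and KLK2, ranged from 37.4 to 79.4. Of the markers of other cell types, PTPRC, DCN and PECAM1 read 13.7 to 75.8, COL1A1 102 to 125, CD68 197 to 295 and CDH5 315 to 412, and their part in the results was not tested. Signal from bulk RNA cannot tell a change in every cell from a change in some of the cells.

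For the members that the results turn on, the 250 bases before the transcription start were read from RefSeq on GRCh38.p14, to show where the core of the response element stands. Capitals mark GCGTG on either strand, where CACGC is the other strand of GCGTG. The windows of TIPARP (chr3:156674340-156674589, plus strand, the outermost of 3 annotated starts), CYP1A1 (chr15:74725529-74725778, minus strand) and AHR (chr7:17298402-17298651, plus strand) read, 5′ to 3′:
TIPARP: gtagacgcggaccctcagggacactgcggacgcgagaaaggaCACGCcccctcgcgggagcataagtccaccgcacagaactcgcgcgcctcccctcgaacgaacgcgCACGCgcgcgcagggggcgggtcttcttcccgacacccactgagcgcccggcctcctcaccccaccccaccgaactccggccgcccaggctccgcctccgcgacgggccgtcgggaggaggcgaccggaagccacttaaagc
CYP1A1: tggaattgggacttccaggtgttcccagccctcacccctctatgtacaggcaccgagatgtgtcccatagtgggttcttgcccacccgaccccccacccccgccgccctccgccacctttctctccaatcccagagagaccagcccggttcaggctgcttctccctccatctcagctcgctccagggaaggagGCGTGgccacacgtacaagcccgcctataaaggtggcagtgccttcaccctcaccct
AHR: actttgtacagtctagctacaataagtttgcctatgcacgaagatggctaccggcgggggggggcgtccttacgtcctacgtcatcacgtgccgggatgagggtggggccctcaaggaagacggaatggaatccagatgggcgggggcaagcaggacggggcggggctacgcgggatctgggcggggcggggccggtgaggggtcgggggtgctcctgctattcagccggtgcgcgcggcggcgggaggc
This TIPARP window held GCGTG in 2 places, beginning 208 and 142 bases before the start, and the windows of the other 2 TIPARP starts held 0 matches. The CYP1A1 window held it once, beginning 57 bases before the start. The windows of the 2 AHRR starts held it in 1 and 2 places. The windows of AHR, ARNT and NQO1 held 0 matches, and sequence outside the 250 bases was not searched. Of 35116 such windows in the RefSeq table, 32.2 percent held GCGTG, which hypoxia response elements share. The antioxidant element TGACNNNGC, searched on both strands, stood in 10.9 percent of the windows, in that of ARNT among the members, and not in those of NQO1, AHR, CYP1A1 or TIPARP. CYP1B1 was not in the table.

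AHR, the receptor gene, was higher in every culture given FGF19. The Mock arrays read 557 and 540.2, and the FGF19 arrays 1299 and 1130.1. The TNFα arrays read 715 and 670.8, and the FGF19 + TNFα arrays 1303 and 1379.8. The 4 arrays with FGF19 lay above the 4 without it, and the TNFα arrays lay between the Mock arrays and the rest. AHR was 2.21-fold higher with FGF19 than in Mock (log2 difference 1.14, standard error 0.10, adjusted p = 0.00275 by limma). In the presence of TNFα the difference between cultures with and without FGF19 was 1.94-fold (log2 difference 0.95, standard error 0.10, adjusted p = 0.00348 by limma). With TNFα alone AHR was 1.26-fold of Mock and did not pass (log2 difference 0.34, standard error 0.10, adjusted p = 0.267 by limma).

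ARNT, which encodes the obligate partner of the receptor and also of the hypoxia factors, followed FGF19 in the same way at a smaller size. Signals were 738 and 757 on the Mock arrays, 1131 and 1094 on the FGF19 arrays, 756 and 799.7 on the TNFα arrays and 1151 and 1184 on those of the combination. The arrays with FGF19 did not overlap with those without it, whereas the Mock and TNFα arrays overlapped. ARNT was 1.49-fold higher with FGF19 (log2 difference 0.57, standard error 0.08, adjusted p = 0.00446 by limma) and 1.5-fold higher when TNFα was present in both groups (0.59, standard error 0.08, adjusted p = 0.00482 by limma). TNFα alone left a log2 difference of 0.06 from Mock (standard error 0.08, adjusted p = 0.805 by limma, 95% interval −0.14 to 0.25). The probeset shared by AHRR and PDCD6 gave signals of 261 to 336 over the 8 arrays and passed in 0 of the comparisons. Its log2 difference between FGF19 and Mock was −0.25 (standard error 0.11, adjusted p = 0.139 by limma).

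**Figure D1:**
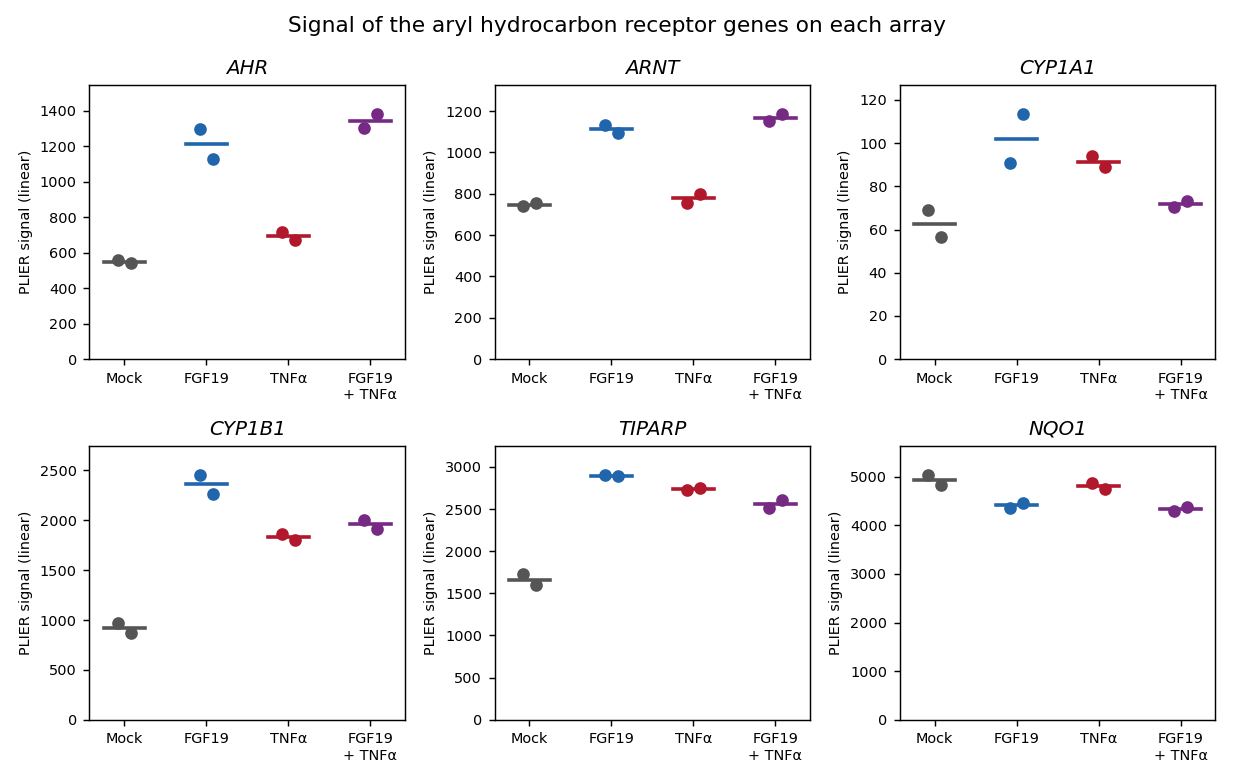
Linear PLIER signal (vertical axes, from 0, scaled for each gene) of the 6 measured genes in the 4 groups; points are arrays and lines are means of 2 arrays. AHR and ARNT separate the groups with FGF19 from those without it, while CYP1B1 rises from 871 to 969 in Mock to at least 1807 in every treated group.

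CYP1B1 was lowest in Mock and higher with either agent. Signals were 969 and 871 on the Mock arrays, 2453 and 2266 on the FGF19 arrays, 1858 and 1807 on the TNFα arrays and 2008 and 1908 on those of the combination. The mean of each treated group lay above that of Mock, and the mean with both agents lay below that with FGF19 alone. CYP1B1 was chosen for a lower-than-additive combined signal, which favours such an order. From Mock the log2 difference was 1.36 with FGF19, 1.00 with TNFα and 1.09 with both, each with a standard error of 0.10. The order from low to high was Mock, TNFα, FGF19 + TNFα and FGF19. TNFα and FGF19 + TNFα, which are neighbours in that order, lay 0.10 apart on the log2 scale with a standard error of 0.10.

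TIPARP, which encodes a mono-ADP-ribosyltransferase that limits the receptor, was also lowest in Mock, over a smaller range. Signals were 1724 and 1599 on the Mock arrays, 2903 and 2888 on the FGF19 arrays, 2721 and 2755 on the TNFα arrays and 2513 and 2608 on those of the combination. Here the combined group had the lowest mean of the 3 treated groups. TIPARP was chosen for a lower-than-additive combined signal, which favours that order. From Mock the log2 difference was 0.80 with FGF19, 0.72 with TNFα and 0.62 with both, each with a standard error of 0.08. The difference between FGF19 + TNFα and TNFα was −0.10 (standard error 0.08), and that between FGF19 + TNFα and FGF19 was −0.18 (standard error 0.08).

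CYP1A1, the classical target of the receptor, was dim. Signals were 68.8 and 56.5 on the Mock arrays, 90.9 and 113 on the FGF19 arrays, 93.9 and 88.9 on the TNFα arrays and 70.5 and 73.3 on those of the combination. Between 35.1 and 52.1 percent of all probesets on an array lay below it, and no detection call was used here. The FGF19 and TNFα arrays lay above those of Mock and of FGF19 + TNFα. CYP1A1 was 1.63-fold higher with FGF19 than in Mock (log2 difference 0.70, standard error 0.15, adjusted p = 0.014 by limma), and this did not pass without Mock replicate 2 (0.56, adjusted p = 0.0764). It was 1.46-fold of Mock with TNFα (0.55, standard error 0.15, adjusted p = 0.213 by limma) and 1.15-fold of Mock with both (0.20, standard error 0.15, adjusted p = 0.324 by limma).

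NQO1 moved little. Signals were 5034 and 4833 on the Mock arrays, 4362 and 4469 on the FGF19 arrays, 4871 and 4744 on the TNFα arrays and 4297 and 4370.4 on those of the combination. The arrays with FGF19 lay below those without it, and the Mock and TNFα arrays overlapped. The log2 difference between FGF19 and Mock was −0.16 (standard error 0.08, adjusted p = 0.173 by limma) and that between TNFα and Mock −0.04 (standard error 0.08, adjusted p = 0.877 by limma). Without moderation of the variances the difference between FGF19 and Mock passed (adjusted p = 0.028), as it did with a trended and robust prior (adjusted p = 0.0499 by limma).

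The question of the combined treatment was whether the difference made by both agents equals the sum of the separate differences. The interaction is the observed log2 difference minus that sum. For CYP1B1, which was picked on it, the interaction was −1.26 (standard error 0.14), and for TIPARP, also picked on it, −0.90 (standard error 0.12). In linear signal the separate rises of CYP1B1 were 1440 with FGF19 and 912 with TNFα, but the rise with both was 1038. For TIPARP they were 1234 and 1076, against 899 with both. The signal with both agents was thus 59.8 percent of the linear sum for CYP1B1 and 64.5 percent for TIPARP. CYP1A1, which was not picked on this value, had an interaction of −1.05 (standard error 0.21, unadjusted p = 0.00201, adjusted p = 0.738 by limma), and its combined signal was 55 percent of the linear sum. The interaction of AHR was −0.19 (standard error 0.14, adjusted p = 0.983 by limma, 95% interval −0.54 to 0.16). On the linear scale its combined signal was 98.7 percent of the sum. For ARNT and NQO1 the interaction was 0.01 each, with standard errors of 0.11 each, and its sign turned after quantile or cyclic loess normalization. Of the 33297 probesets, 0 percent (0 probesets) passed the interaction by limma, 1715 had an unadjusted p under 0.05, 0 passed without moderation and 4 with the trended and robust prior, and AHR, ARNT, CYP1A1 and NQO1 passed in none of these fits.

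**Figure D2:**
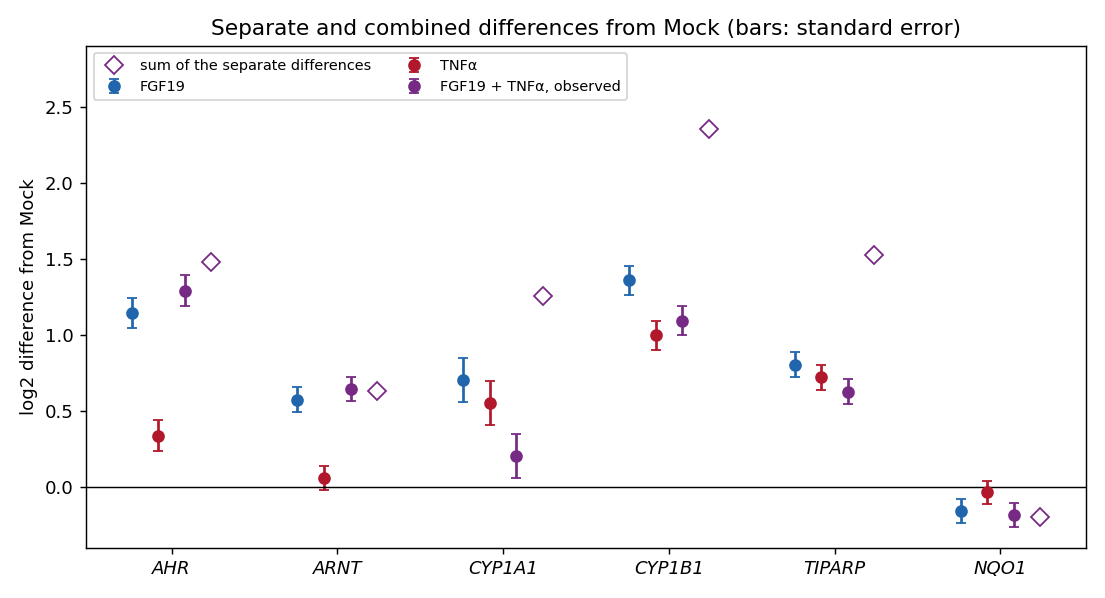
Log2 difference from Mock (vertical axis) with FGF19 (blue), TNFα (red) and FGF19 + TNFα (purple) for the 6 measured genes, with standard errors as bars; open diamonds are the sum of the separate differences. For CYP1B1, TIPARP and CYP1A1 the observed combined value lies below the diamond, by 1.26, 0.90 and 1.05, and for ARNT and NQO1 it differs from it by 0.01.

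Averages over the other agent can be tested for all 6 genes, because in this balanced design their estimates are independent of the interaction. The residual spread is shared with the interaction, so that the p values of CYP1B1 and TIPARP are not wholly free of their choice. Averaged over cultures with and without TNFα, 4 of 6 genes were higher with FGF19, where 46.8 percent of all probesets were called, 28 percent higher and 18.9 percent lower. These were AHR (log2 difference 1.05, adjusted p = 0.000435 by limma), CYP1B1 (0.73, adjusted p = 0.00058), ARNT (0.58, adjusted p = 0.000659) and TIPARP (0.35, adjusted p = 0.00381). For CYP1B1 and TIPARP the average joins unlike differences, as their choice favours. Without TNFα these were 1.36 and 0.80. With TNFα in both groups they were 0.10 (standard error 0.10) and −0.10 (standard error 0.08). CYP1A1 (0.18, adjusted p = 0.202 by limma) and NQO1, which was lower (−0.15, adjusted p = 0.0612 by limma), did not pass. NQO1 passed without moderation of the variances (adjusted p = 0.00895) and with a trended and robust prior (adjusted p = 0.00947 by limma). AHR, ARNT and CYP1B1 were higher on all 4 arrays with FGF19 than on any array without it, and TIPARP was not, since its TNFα arrays lay among them. How many of all probesets separate in this way, or in the ways described for NQO1 and CYP1A1, was not counted. Whether such separation is particular to these genes therefore cannot be told. Averaged over cultures with and without FGF19, 0 of 6 genes passed for TNFα, where 1.47 percent of all probesets were called (1.31 percent higher and 0.162 percent lower). CYP1B1 came nearest, with a log2 difference of 0.36 (standard error 0.07, unadjusted p = 0.00153, adjusted p = 0.0793 by limma). It was followed by TIPARP with 0.27 (standard error 0.06, unadjusted p = 0.00316, adjusted p = 0.116 by limma). CYP1B1 passed with 16 added to the signal before log2 (adjusted p = 0.0369), without the dimmest 20 percent of probesets (adjusted p = 0.038) and, like TIPARP (adjusted p = 0.0138), with a trended and robust prior (adjusted p = 0.00811 by limma).

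Among the 4 measured genes not picked on the interaction, AHR, ARNT and CYP1A1 were called higher with FGF19 than in Mock and 0 were called lower, where 32.2 percent of all probesets were called, 18.2 percent higher and 14.1 percent lower. With FGF19 + TNFα against TNFα, 2 of the 4 were called, AHR and ARNT, where 32.4 percent of all probesets were (19.4 percent higher and 12.9 percent lower). The same 2 were called with FGF19 + TNFα against Mock, where 33.9 percent were (19.3 percent higher and 14.7 percent lower). With TNFα against Mock 0 of the 4 were called (1.06 percent of all probesets, 0.967 percent higher and 0.0961 percent lower). By limma, AHR and CYP1A1 had unadjusted p = 0.0152 and 0.0085, and 0 passed without moderation. With FGF19 + TNFα against FGF19 0 were called (0.282 percent of all probesets, 0.279 percent higher and 0.003 percent lower). By limma, CYP1A1 had unadjusted p = 0.0134, and 0 passed without moderation. Any difference among the 4 groups was called for AHR (adjusted p = 0.00217) and ARNT (adjusted p = 0.00376) by the moderated F test of limma at 0.015, where 20.9 percent of all probesets were called. ARNT lost that call when Mock replicate 1 or 2 (adjusted p = 0.0209 and 0.0202), TNFα replicate 1 or 2 (0.0172 and 0.0162) or FGF19 + TNFα replicate 1 or 2 (0.0162 and 0.0188) was left out.

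Likeness to CYP1B1 and TIPARP was measured by Pearson correlation of log2 signal over the 8 arrays. The most alike genes were sought among 12227 probesets with 1 gene symbol and a group mean above 100, with the members left out. For CYP1B1 they were SLC7A11, the cystine transporter gene (r = 0.966), ZNF606-AS1 (r = 0.961) and FGF2, a fibroblast growth factor gene (r = 0.956). For TIPARP they were PDE4B, a cAMP phosphodiesterase gene (r = 0.953), CPEB4, which encodes a regulator of translation (r = 0.950), and again FGF2 (r = 0.946). CYP1B1 and TIPARP, both picked on the interaction, correlated with each other at r = 0.977, above every gene named here. The measure disregards size. SLC7A11 had mean signals of 2225 in Mock, 2775 with FGF19, 2512 with TNFα and 2600.3 with both. The 2 Mock arrays of FGF2 read 765 and 759, and its means were 924 with FGF19, 904 with TNFα and 937 with both. PDE4B had 104 in Mock, 145 with FGF19, 138 with TNFα and 145 with both. Mock was the lowest group in each of these genes, which follows from selecting them for likeness to CYP1B1 and TIPARP.

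**Figure D3:**
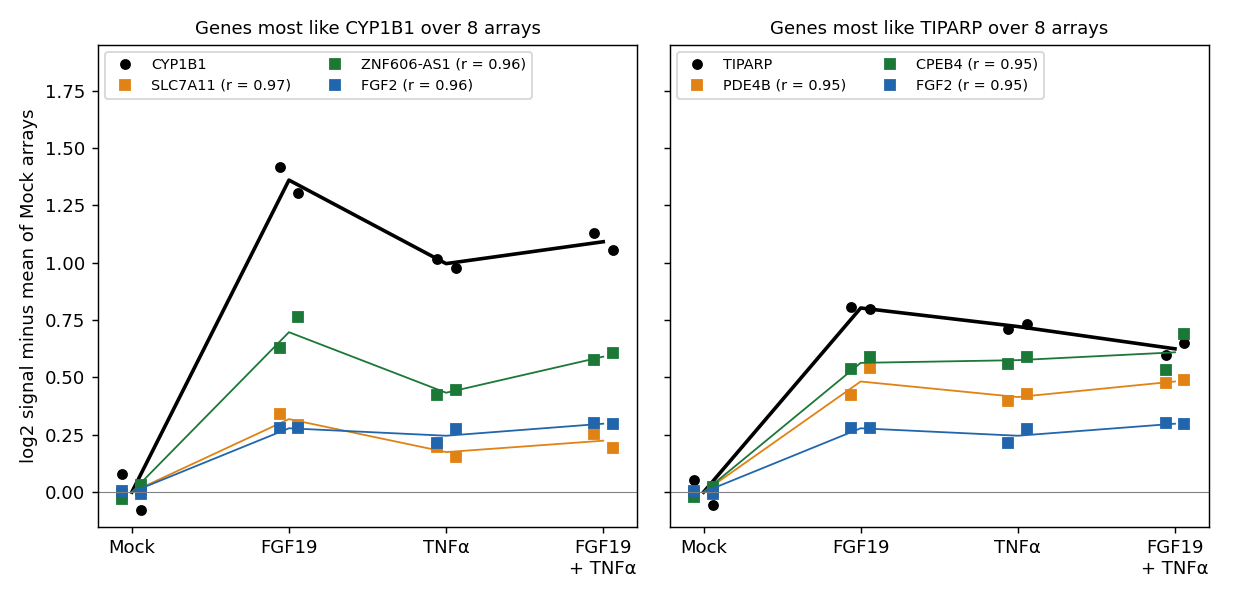
Log2 signal minus the mean of the Mock arrays (vertical axis) in the 4 groups for CYP1B1 (left, black) and TIPARP (right, black). Colors show the 3 genes outside the members that are most like each. Points are arrays, lines join means of 2 arrays, and r is Pearson's correlation over 8 arrays. CYP1B1 spans a wider range than SLC7A11, ZNF606-AS1 and FGF2, and CPEB4 comes close to TIPARP.

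Partners of the receptor and its transcriptional coactivators were mostly higher with FGF19. Of 12 measured genes of this list, 8 were higher and 1 lower than in Mock, with a median log2 difference of 0.48. Over all probesets 18.2 percent were higher and 14.1 percent lower, with a median of 0.08. EP300 and CREBBP, which encode histone acetyltransferases, rose 2.08-fold and 2.02-fold, and NCOA1, a coactivator gene of nuclear receptors, 1.99-fold. The mean signal of EP300 was 271 in Mock, 568 with FGF19, 293 with TNFα and 614 with both, so that its pattern was that of AHR and ARNT. PTGES3, the gene of the cochaperone p23 of the HSP90 complex, was lower by 1.4-fold (log2 difference −0.49, adjusted p = 0.0101 by limma). HSP90AB1 itself had a log2 difference of −0.23 and HSP90AA1 of −0.10, and neither passed. Averaged over cultures with and without TNFα, HSP90AB1 was called lower (−0.23, adjusted p = 0.0198 by limma), where 18.9 percent of all probesets were. HSP90AA1 was not called there (−0.07, adjusted p = 0.376 by limma). With TNFα against Mock 0 of the 12 were called.

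Of 13 measured genes among other targets of the receptor, 3 (23.1 percent) were higher with FGF19 than in Mock and 0 lower, beside 32.2 percent of all probesets called. Averaged over cultures with and without TNFα, 6 of the 13 (46.2 percent) were called for FGF19, 4 higher and 2 lower, beside 46.8 percent of all probesets. NFE2L2, the gene of NRF2, was 1.88-fold higher, the transporter gene ABCG2 1.39-fold and EREG, which encodes the EGF receptor ligand epiregulin, 1.37-fold. CYP1A2 and ALDH3A1, 2 further genes of the classical battery, had mean signals of at most 67.6 and 102 in any group and did not pass (log2 differences 0.19 and 0.16). EREG was also the 1 gene of this list called with TNFα, 2.01-fold higher than in Mock (log2 difference 1.01, standard error 0.08, adjusted p = 0.00494 by limma). The Mock arrays read 1286 and 1203, the FGF19 arrays 1703 and 1711, the TNFα arrays 2547 and 2455, and those of the combination 2476 and 2509.6, so that the combined group overlapped with TNFα alone. The interaction of EREG was −0.46 (standard error 0.11, unadjusted p = 0.0065, adjusted p = 0.816 by limma). STC2, which encodes the secreted glycoprotein stanniocalcin, had the smallest interaction p among the genes of all lists and did not pass either (−0.74, standard error 0.12, unadjusted p = 0.00073, adjusted p = 0.738 by limma). Its Mock arrays read 932 and 890.2, its FGF19 arrays 769.6 and 804, its TNFα arrays 1297 and 1266, and those of the combination 686 and 639.5. The mean was lowest with the combination and highest with TNFα. STC2 was named for its interaction after the values were seen, so that this order is not a separate result.

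The genes listed for the NRF2 battery, to which NQO1 belongs, were mostly lower with FGF19. Of 16 measured genes, 10 were lower and 4 higher than in Mock, with a median log2 difference of −0.39, where 14.1 percent of all probesets were lower and 18.2 percent higher, with a median of 0.08. The 10 lower genes included KEAP1, which encodes the inhibitor of NRF2, and the MAF factor genes MAFF and MAFG. The count is therefore not one of NRF2 target genes alone. KEAP1 was 2.55-fold lower, with mean signals of 835 in Mock and 330.3 with FGF19, and FTL, the ferritin light chain gene, was 1.94-fold lower. ABCC2, a transporter gene, was 1.89-fold higher. With TNFα 2 genes were higher, MAFF, a small MAF factor gene, by 2.4-fold and ABCC2 by 1.74-fold. MAFF had mean signals of 112 in Mock, 66.6 with FGF19, 268 with TNFα and 137 with both.

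Among the remaining lists, 7 of 12 bHLH-PAS factor genes were higher with FGF19 and 0 lower, where 18.2 percent of all probesets were higher and 14.1 percent lower. The smallest p values were those of BMAL2 (1.41-fold), EPAS1 (1.51-fold) and SIM2 (1.48-fold), and the highest fold that of NPAS2 (1.57-fold, adjusted p = 0.0121 by limma). Of 15 genes of the PARP family, to which TIPARP belongs, 7 were higher and 2 lower, against the same shares of all probesets. PARP11, a mono-ADP-ribosyltransferase gene, was 2.05-fold higher, PARP4 1.43-fold higher and PARP1, the main DNA-damage polymerase gene of the family, 1.56-fold lower. In both lists 0 genes were called with TNFα against Mock. Of 11 genes of tryptophan metabolism or of electron supply to cytochromes P450, 1 was higher and 4 were lower with FGF19 (45.5 percent called, beside 32.2 percent of all probesets). POR, which encodes the reductase that feeds CYP1A1 and CYP1B1, was 2.07-fold lower, with mean signals of 380 in Mock and 186 with FGF19, AFMID was 1.56-fold lower and AADAT 1.47-fold higher. KYNU, which encodes kynureninase, was 1.73-fold higher with TNFα (log2 difference 0.79, standard error 0.08, adjusted p = 0.0119 by limma). Its signal was 945 and 984 in Mock, 1664 and 1672 with TNFα, 1010.0 and 1076 with FGF19, and 1893 and 1839.7 with both.

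Over all 6 lists, 47 of 79 measured genes (59.5 percent) were called with FGF19 against Mock, beside 32.2 percent of all probesets, which include 12083 without a gene symbol. Without Mock replicate 1 or 2 the count was 27 and 22, and some of the genes named above then did not pass. Without Mock replicate 2 these included EREG and PTGES3 (adjusted p = 0.0572 and 0.0651 by limma), and without Mock replicate 1 AADAT (adjusted p = 0.0527 by limma). ABCG2, AFMID, MAFF and NPAS2 did not pass when either of the Mock arrays was left out, with adjusted p of up to 0.0686, 0.0694, 0.0658 and 0.068 by limma. With TNFα against Mock 4 of 79 (5.06 percent) were called, EREG, MAFF, ABCC2 and KYNU, beside 1.06 percent of all probesets. That count was 1 and 0 without Mock replicate 1 and 2, 1 without TNFα replicate 1 or 2, and 2 without FGF19 + TNFα replicate 1 or 2. The highest adjusted p with an array left out was 0.0661 for EREG, 0.119 for KYNU, 0.167 for MAFF and 0.225 for ABCC2. In the interaction 0 of 79 passed by limma. At an unadjusted p under 0.05 there were 3 of 79, beside 1715 of 33297 probesets. The share in the lists was thus no larger than that of all probesets. Without moderation of the variances 0 of 79 passed.

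**Figure D4:**
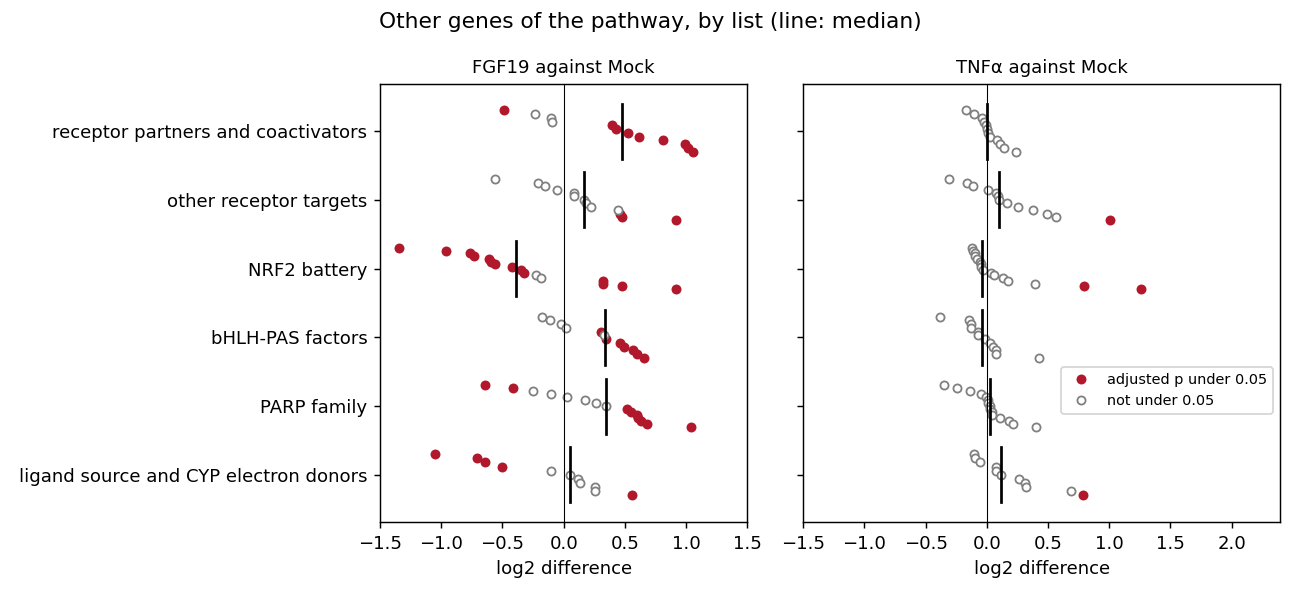
Log2 difference (horizontal axes) of each measured gene of the 6 lists with FGF19 against Mock (left) and TNFα against Mock (right); red points passed at an adjusted p under 0.05, open points did not, and vertical lines are medians. On the left the median of the receptor partners is 0.48 and that of the NRF2 battery −0.39; on the right the medians lie between −0.04 and 0.11.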

How the data were processed

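RNA of DU145 cells was measured on 8 Affymetrix Human Gene 1.0 ST arrays, 2 per group; groups and replicate numbers came from the sample labels. The authors deposited linear signal intensity for 33297 probesets, made per the labels with Affymetrix Expression Console and PLIER; the sources used here name no version or normalization. Signals of exactly 0 (240 values) were raised to the lowest signal above 0 of their own array, and log2 was taken without further scaling. The smallest positive signal was 0.01. The number of arrays limits the precision.

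A linear model with 4 group means was fitted to all 8 arrays and 33297 probesets with limma 3.58.1 in R 4.3.3 (lmFit, eBayes). Benjamini-Hochberg adjusted p-values were called at 0.05, and at 0.015 for the moderated F test, the threshold of the study's one-way analysis of variance. The members and lists were chosen with earlier results of these data known. For CYP1B1 and TIPARP only the averages over the other agent were tested; these share the residual spread with the interaction. Symbols came from the platform annotation, matched through Entrez identifiers for 19429 of 19460 probesets with 1 symbol. Of 88 list genes 79 had such a probeset, and the brightest was used. The genes named are the members and up to 3 called genes per list and comparison with the smallest p. Named too are the 3 genes outside the members that are most like CYP1B1 or TIPARP. PTGES3, HSP90AA1, HSP90AB1, CYP1A2, ALDH3A1, STC2 and NPAS2 were added after their values were seen. The fit was tested on simulated data. Tried besides were cyclic loess or quantile normalization, adding 16 ahead of the logarithm, dropping the dimmest 20 percent of probesets, no moderation, a trended and robust prior, only the groups compared, every probeset counted, a block for the replicate number, and each array left out. Figures were drawn with matplotlib 3.10.9.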

Additional observations from a re-analysis of the deposited data

How the results depend on the processing

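The calls of AHR and ARNT with FGF19 against Mock and with FGF19 + TNFα against TNFα or Mock passed under every alternative run, single arrays left out included. CYP1A1 with FGF19 against Mock did not pass when only the groups compared were fitted (adjusted p = 0.0536 by limma). The interaction of CYP1B1 lay between −1.34 and −1.19 and that of TIPARP between −0.95 and −0.85 when an array was left out, both extremes coming from the Mock arrays. The number of members with any difference among the 4 groups lay between 1 and 2 when an array was left out, and was 3 without the dimmest 20 percent of probesets, where CYP1A1 passed too (adjusted p = 0.0138 by limma). The number of members called in the mean effect of TNFα was 1 with 16 added before log2, 1 without the dimmest 20 percent and 2 with the trended and robust prior. The number of other pathway genes called with FGF19 against Mock was 29 with only the groups compared and 22 to 45 when an array was left out. With TNFα against Mock it was 8 with the trended and robust prior, 1 with only the groups compared and 0 to 4 when an array was left out. In the mean effect of TNFα it was 3 to 4 when an array was left out, beside 5 with all arrays. Signs turned only for values that did not pass. The interaction of ARNT was −0.00472 after quantile and −0.000776 after cyclic loess normalization and −0.0275 to 0.0529 with an array left out. That of NQO1 was −0.0185, −0.00862 and −0.0192 to 0.0396. NQO1 with TNFα against Mock was 0.00493 after quantile normalization, and the mean effect of TNFα on CYP1A1 was −0.0531 to 0.107 with an array left out. Normalization moved the median of all probesets by at most 0.1 on the log2 scale, and the cause of the other changes was not tested.

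With the replicate number as a block, the number of other pathway genes called in the mean effect of TNFα was 3, and no call of a member changed. The numbers were not taken to pair the arrays, since deviations of same-numbered arrays correlated at −0.02 to 0.20 between groups.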
